A study of Mus musculus with 2 samples.

Results

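Intronic distal H3K27ac peaks are described here: peaks of the list made from both replicates whose midpoint lay over 2.5 kb from every start of a protein-coding transcript, inside a protein-coding gene, and in no annotated exon. Of the 32877 peaks in that list, 9924 met this rule (30.2%, 95% Wilson interval 29.7% to 30.7%, which covers counting error only). The assay was chromatin immunoprecipitation followed by sequencing (ChIP-seq) of H3K27ac in macrophages of C57BL/6J mice, grown from bone marrow and given no stimulus. The series had 1 group of 2 biological replicates, whose biosamples are separate but list 1 and the same donor. Each was begun with 10 ng of DNA, with no allele or agent named and with age, sex and stage unknown or not collected, so the spread between them may not include differences between animals. No condition could be compared, and even 2 samples against 2 could not give an exact permutation p below 0.333, so values are set beside the spread of the separate lists that the authors deposited for each replicate. The files hold no read counts, so the depth is unknown, and where no peak was listed the signal did not pass the authors' calling threshold, which does not show that the mark was absent.

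H3K27ac is acetylation of lysine 27 of histone H3. It is laid down by the acetyltransferases p300 and CBP at active promoters and at active enhancers, which are stretches of DNA that bind transcription factors and act on promoters from a distance. In macrophages, PU.1 (encoded by Spi1) binds many such distal elements together with AP-1, C/EBP, RUNX, IRF and MiT/TFE factors, and many of them lie in introns. H3K27ac was the only mark used here, so whether any single peak acts as an enhancer, and on which gene, was not tested, and the gene that holds a peak is called its host only for its position.

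The cells were checked against marker genes. A peak overlapped the 1 kb on either side of a coding start (a promoter peak) in 13 of 13 macrophage markers, among them Spi1, Csf1r, Cd68 and Adgre1. None of 12 chosen markers of other cell types (T, B, granulocyte, epithelial, fibroblast, cardiac, liver and neuronal) had a promoter peak or an intronic distal peak, although the longer lists of such genes described below include hosts such as Ms4a1, Cxcr5 and Cd6, while 47.5% of all 17560 protein-coding genes with eligible intron had a promoter peak. Of the 13 macrophage markers, 7 also held an intronic distal peak. Among all genes with eligible intron, 33.0% of those with a promoter peak and 10.9% of those without one held such a peak.

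Sequences at the midpoints of 6 intronic distal peaks show the kind of DNA described below. They were chosen after the values were seen, because a short word related to a macrophage transcription factor lies in the window: 3 are among the 20 members with the highest fold, and 3 lie in Runx1, Mef2c and Fli1, which encode transcription factors of myeloid cells. Each is 300 bases of the plus strand of the RefSeq genome sequence of GRCm38.p6, free of annotated exons, in lower case with the matched word in capitals. In Gna12, Abhd12 and Runx1 the capitals mark TGAGTCA, the AP-1 word on the opposite strand, and in Ssh1 the AP-1 word TGACTCA itself. The second block of capitals in Abhd12 marks the IRF word (GAAA, any 2 bases, GAAA), those in Mef2c mark the PU.1 word GAGGAAGT read on the opposite strand, and those in Fli1 mark the RUNX word TGTGGTTT.
Gna12, chr5:140767863-140768162: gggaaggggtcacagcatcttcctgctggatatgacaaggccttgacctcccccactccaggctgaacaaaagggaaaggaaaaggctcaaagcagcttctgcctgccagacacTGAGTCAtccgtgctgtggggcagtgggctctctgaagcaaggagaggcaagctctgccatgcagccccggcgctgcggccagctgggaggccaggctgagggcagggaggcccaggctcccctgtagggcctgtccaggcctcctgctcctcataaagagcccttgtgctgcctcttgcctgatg
Abhd12, chr2:150840386-150840685: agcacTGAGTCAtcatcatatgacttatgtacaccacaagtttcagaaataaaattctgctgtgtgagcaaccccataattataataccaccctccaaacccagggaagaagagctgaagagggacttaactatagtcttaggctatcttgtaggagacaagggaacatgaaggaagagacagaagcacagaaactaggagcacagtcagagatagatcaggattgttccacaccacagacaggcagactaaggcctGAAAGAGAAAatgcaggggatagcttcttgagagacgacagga
Ssh1, chr5:113945095-113945394: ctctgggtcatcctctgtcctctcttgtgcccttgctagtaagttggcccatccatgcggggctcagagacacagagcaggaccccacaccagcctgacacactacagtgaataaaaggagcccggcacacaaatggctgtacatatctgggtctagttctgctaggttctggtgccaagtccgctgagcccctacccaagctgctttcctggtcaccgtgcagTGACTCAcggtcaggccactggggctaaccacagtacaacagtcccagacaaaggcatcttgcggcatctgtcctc
Runx1, chr16:92675758-92676057: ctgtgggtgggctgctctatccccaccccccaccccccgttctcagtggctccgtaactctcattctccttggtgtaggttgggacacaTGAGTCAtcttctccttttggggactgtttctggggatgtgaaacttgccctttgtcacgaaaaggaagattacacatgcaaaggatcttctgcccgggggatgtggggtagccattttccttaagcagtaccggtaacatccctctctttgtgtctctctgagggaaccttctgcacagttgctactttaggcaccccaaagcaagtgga
Mef2c, chr13:83609140-83609439: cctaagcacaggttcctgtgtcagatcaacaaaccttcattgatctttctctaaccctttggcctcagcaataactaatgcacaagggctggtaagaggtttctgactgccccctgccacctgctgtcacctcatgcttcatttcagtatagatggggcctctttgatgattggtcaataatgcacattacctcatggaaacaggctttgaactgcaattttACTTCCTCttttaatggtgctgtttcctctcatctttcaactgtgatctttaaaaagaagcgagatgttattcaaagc
Fli1, chr9:32515224-32515523: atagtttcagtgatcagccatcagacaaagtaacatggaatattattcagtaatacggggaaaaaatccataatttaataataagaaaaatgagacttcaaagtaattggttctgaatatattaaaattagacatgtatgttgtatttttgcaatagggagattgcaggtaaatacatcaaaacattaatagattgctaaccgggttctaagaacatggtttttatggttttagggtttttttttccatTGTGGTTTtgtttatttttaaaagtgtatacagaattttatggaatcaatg
A match describes the letters only, not binding of a factor. Of the 20 members with the highest fold, 19 had a 300 bp window free of exons, and 6 of these 19 held the AP-1 word and 0 the PU.1 word GAGGAAGT.

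Intronic distal peaks were more thinly spread than promoter peaks and denser than intergenic ones. The bases that the rule could select (eligible intron) came to 858.7 Mb, 31.5% of the genome. They held 11.6 members per Mb, against 5.04 intergenic distal peaks per Mb of intergenic sequence, 91.6 peaks per Mb within 2.5 kb of a coding start and 13.1 per Mb of distal exon. In the replicate lists the density was 10.2 per Mb in replicate 1 and 10.1 in replicate 2, and that of intergenic distal peaks was 4.42 and 4.37. The difference between the classes was larger than the spread between replicates in each list. The share of intronic distal peaks was 29.5% ± 0.0901 (SD, n = 2), from 8746 peaks of replicate 1 and 8650 of replicate 2.

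The fold of a peak, which is the authors' linear ratio over control or background and is used only within a list, was lower in introns than in the other classes. The median fold of the 9924 members was 5.19, with quartiles of 3.53 and 9.93. It was 5.83 for intergenic distal peaks, 7.42 for peaks within 2.5 kb of a start and 6.31 over all peaks. The replicate lists gave medians of 6.02 and 6.03 for intronic, 6.71 and 6.70 for intergenic, and 7.74 and 8.04 for promoter-near peaks, so the order of the classes was the same in each list and the gaps exceeded the spread between replicates. Of the 1000 highest folds 297, and of the 100 highest 36, were intronic distal peaks, against 380 and 36 promoter-near peaks. Of these members, 233 and 24 lay wholly over 2.5 kb from every coding start, and 10 of the 36 covered one.

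Intronic distal peaks were wider than promoter-near peaks. Their median width was 1139 bp, against 888 bp near starts and 1098 bp between genes. The replicate lists gave 1039 bp ± 44.5 (SD, n = 2) for intronic and 826 bp ± 41.0 for promoter-near peaks. The intronic and intergenic widths did not differ beyond the spread, since the replicate means were 1039 and 1044 bp and the order turned round between lists. At 5 kb or wider stood 343 members (3.46%), against 1.83% of promoter-near and 2.48% of intergenic peaks. Width went with fold: members under 500 bp wide had a median fold of 3.15, those of 1 to 2 kb 6.31 and those of 5 kb or wider 30.4. Members were the widest of the 3 classes in each of 10 equal bins of all peaks by fold, from 3891 bp in bin 1, the highest (2565 bp near starts), to 513.5 bp in bin 10 (466 bp).

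Some of the widest members reach a promoter although their midpoint is intronic. A coding start lay inside 53 members (0.534%), whose median fold was 37.5 and median width 9188 bp. In all, 442 members (4.45%) came within 2.5 kb of a start with 1 edge, and 9482 lay wholly beyond it, with a median fold of 5.10. On either side of the midpoint threshold, the 303 members with a midpoint 2501 to 3000 bp from a start had a median fold of 5.10, and the 345 intronic peaks 2001 to 2500 bp away, just outside the rule, 5.84. A start of a gene that is not protein-coding lay within 1 kb of 209 midpoints and a start of a noncoding transcript of a protein-coding gene within 1 kb of 394.

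The highest folds lay in Ctsb, Sirpa and Arhgap22. The first was a peak of 18054 bp in Ctsb, the gene of cathepsin B, a protease of lysosomes (chr14:63121199-63139252, intron 1 of 9), with a fold of 58.0, and of 53.3 in each replicate list. It was followed by Sirpa, the inhibitory receptor that reads CD47 (57.5, and 54.2 and 51.6 in replicates 1 and 2). Arhgap22, which encodes a GTPase-activating protein for Rac, held the third (55.3, and 49.6 and 52.1). All 3 of these peaks cover a coding start of their host. The 20 highest members had folds of 50.1 to 58.0 and stood at or above place 55 among all 32877 peaks. All 20 were in both replicate lists, 7 covered a coding start, 1 more came within 2.5 kb of one and 12 lay wholly beyond it.

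Those 12 lay farther from coding starts, though 2 of the peaks named next, in Itgb5 and Abhd12, had their midpoint within 1 kb of a start of a noncoding transcript. Abr, which encodes a GTPase-activating protein for Rac, held the highest (55.01, and 50.4 and 50.9 in the replicates, chr11:76585988-76592350), with its near edge 8261 bp from a start. A peak in the last intron of Rnf150, a RING finger gene, lay 108547 bp from the nearest start (54.9, and 48.9 and 52.1, chr8:83053454-83056805). Gna12, which encodes the alpha subunit of the heterotrimeric protein G12, held a peak of 11819 bp (54.5, and 50.4 and 49.9, chr5:140762104-140773922), and its window is printed above. Itgb5, the integrin beta 5 subunit, held one in intron 10 of 14 (53.7, and 47.4 and 51.2). Lasp1 (53.4), an actin-binding protein, Abhd12 (53.0), a lysophosphatidylserine lipase, Armc9 (52.5), Mthfsl (52.4) and Ssh1 (52.2), a phosphatase that activates cofilin, followed. F830045P16Rik held one of 53.4 in its first intron without a promoter peak of its own, 22238 bp from the nearest coding start. Each of these peaks was in both replicate lists. The 5 widest members were in Adam8, Lrp1, Pstpip1, Psap and 2010111I01Rik, from 19406 to 24385 bp, and only that of Lrp1, an endocytic receptor, did not cover a coding start of a gene, with its edge 2152 bp away.

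Most members were found in each replicate on its own, and those that were not had low folds. A peak of both replicate lists overlapped 6895 members by at least 1 bp (69.5%, 68.6% to 70.4%), against 74.5% of all peaks, 80.2% of promoter-near and 71.4% of intergenic distal peaks. The replicate 1 list alone supported 730 members (7.36%), the replicate 2 list alone 816 (8.22%) and neither list 1483 (14.9%). The median fold was 7.51 for members in both lists, 3.35 and 3.43 for those in 1 list and 2.96 for those in neither, and the median widths were 1556, 630, 625.5 and 449 bp. Over the 6895 shared members, the folds of the replicate lists had a Spearman correlation of 0.936, given as a description since the lists share the ranking that selected them. Replicate 1 had the higher fold in 48.8% of them, and 21 differed by more than 2 times.

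Support fell steeply along the fold ranking. All 4108 members of fold bins 1 to 5 were in both lists, 98.1% in bin 6, 86.9% in bin 7, 56.9% in bin 8, 21.5% in bin 9 and 4.76% in bin 10, the lowest. In bins 6 to 9, members were supported more often than promoter-near peaks of like fold. In bin 8, 56.9% (54.0% to 59.8%) were in both lists, against 36.6% (33.9% to 39.4%) near starts and 47.0% (43.7% to 50.3%) between genes. The median widths in bin 8 had the same order, at 734, 513 and 624 bp, and the part of width in this support was not tested. In bin 10 the shares were 4.76% and, near starts, 3.44%, with overlapping intervals. The lower support of introns as a whole thus stands beside their larger share of low folds, 14.8% of members being in bin 10 against 4.96% of promoter-near peaks. The members with the highest fold in neither list were in 9030025P20Rik (5.01), Slc22a29 (4.55), Gm20388 (4.55), Araf (4.45) and Zmiz1 (4.36).

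**Figure D1:**
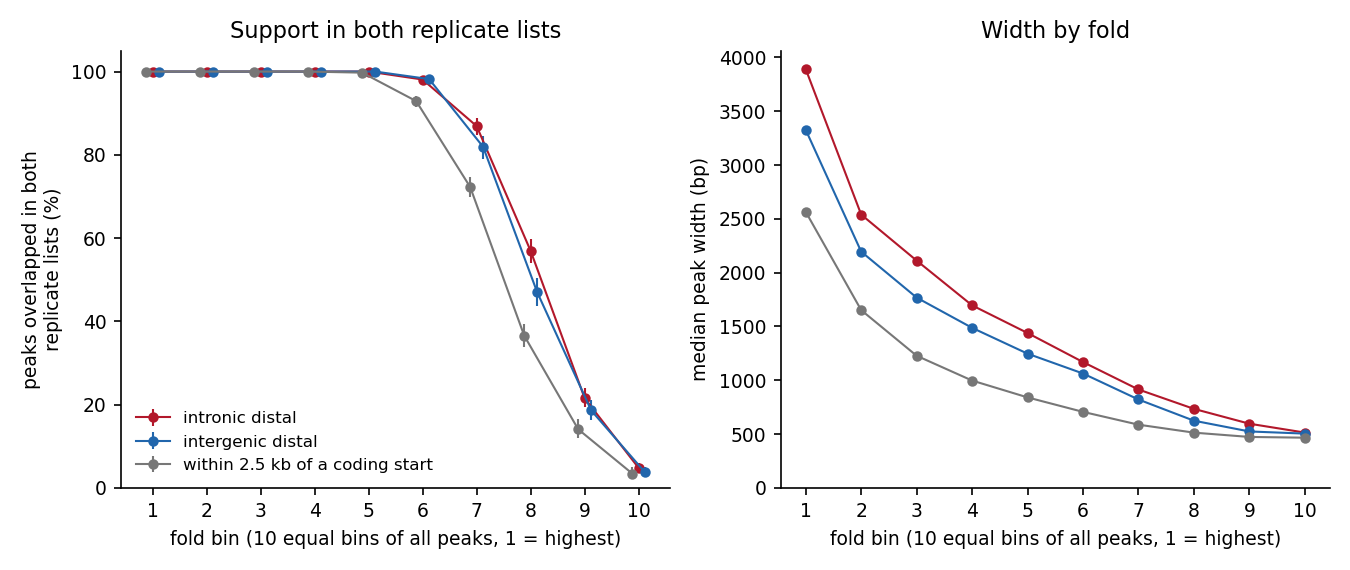
Left, percent of peaks overlapped in both replicate lists (y axis, with 95% Wilson intervals) in 10 equal bins of all 32877 peaks by fold (x axis, 1 is the highest), for intronic distal, intergenic distal and promoter-near peaks. Right, median width in bp of the same peaks. Support stays at 100% in the 5 highest bins of intronic peaks and falls to 4.76% in the lowest, and the intronic line is the highest of the 3 for width throughout.

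First introns held more members per Mb than later introns. By the representative coding transcript of each gene, 3236 members lay in first introns, 5931 in later introns and 757 in neither. First introns thus held 35.3% (34.3% to 36.3%) of the members placed, on 23.3% of the eligible bases, which is 17.7 members per Mb against 9.84 in later introns, a ratio of 1.80. The replicate lists each gave a ratio of 1.83. Since first introns lie closer to starts, the densities were also set side by side at like distance. Within 2.5 to 5 kb of a coding start they were 26.05 per Mb in first and 16.3 in later introns, at 10 to 25 kb 21.3 and 13.4, and at 25 to 50 kb 15.7 and 12.1. At 50 to 100 kb they were 8.19 and 8.35, and beyond 100 kb 3.63 and 3.21. The ratio was 1.60, 1.61 and 1.58 in the 3 nearest bins, 1.30 in the next and 0.981 and 1.13 in the last 2, where replicate 1 gave 0.930 and 1.05 and replicate 2 gave 0.917 and 1.14.

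Peaks in first and later introns had like medians, but the widest peaks lay more often in first introns. The median fold was 5.19 in both, the median widths were 1171 and 1126 bp, and 69.1% and 69.6% were in both replicate lists, with overlapping intervals (67.5% to 70.7% and 68.4% to 70.8%). Of the placed members 5 kb or wider, 48.6% lay in first introns, against 33.0% to 35.5% in the narrower classes of width. Of the 20 members with the highest fold, 19 lay in an intron of the representative transcript, 6 of them in the first and 4 in the last. Intronic distal peaks lay a median of 17582 bp from the nearest coding start. Of all members, 1742 (17.6%) were over 50 kb and 603 (6.08%) over 100 kb away.

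**Figure D2:**
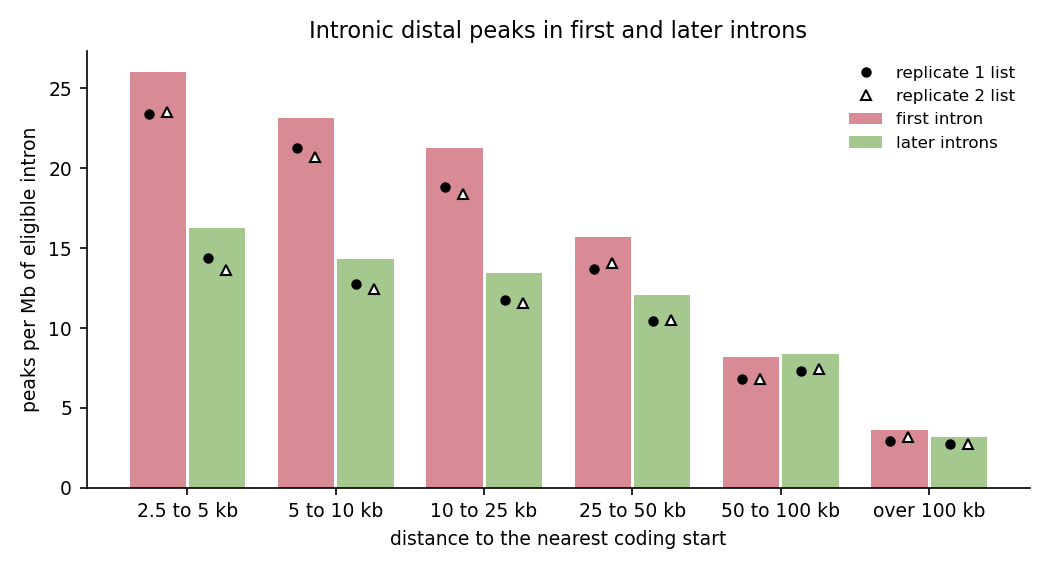
Intronic distal peaks per Mb of eligible intron (y axis) by distance to the nearest coding start (x axis), in first and later introns of the representative transcript. Bars give the list made from both replicates and symbols the list of each replicate. First introns stand above later introns up to 50 kb, and the 2 are close from 50 kb on.

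Members were unevenly shared among genes. Of the 17560 protein-coding genes with eligible intron, 3761 held at least 1 member (21.4%), with a mean of 2.73 and a median of 2. In the replicate lists 3381 and 3397 genes were hosts, and 3122 held a member found in both. A single member was held by 1727 hosts, while 132 hosts with 10 or more (3.51% of hosts) held 1812 members, 18.3% of all. Host genes had a median of 48.2 kb of eligible intron, against 11.7 kb in the other genes. Of the members, 9614 (96.9%) had 1 host and the rest lay in overlapping gene models.

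Apart from 4 long gene models given last, Arid1b, Lpp and Lyn led the count of members. Arid1b, a subunit of the BAF chromatin remodelling complex, held 29 members (18 in both replicate lists) in 336.4 kb of eligible intron, the highest with a fold of 36.7. Lpp, a LIM domain protein of focal adhesions, held 25 and Lyn, a Src family kinase, 25. Snx29 held 24. Foxp1, a forkhead transcription factor, Sgms1, a sphingomyelin synthase, and Tns3, a tensin, held 22 each. Cdk6 and Zmiz1 held 21 each, and Elmo1, an adaptor in the engulfment of dying cells, and Srgap2 20 each. The counts for Gm20388 (84), Fgfr2 (30), Gm37240 (25) and Gm20696 (21) rest on long gene models that run across other genes: 54, 27, 13 and 17 of these members lie in another host as well, and the first model spans 4435 kb. Of these 15 hosts, 12 had a promoter peak, against 73.2% of all hosts and 88.6% of hosts with 10 or more members. Those without one were Gm20388, Gm37240 and Gm20696. In 12 of 15 fewer members lay in the first intron than elsewhere, while 35.3% of all placed members lay in first introns.

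Counted per length, Lyn had 20.1 members per 100 kb of eligible intron, followed among these 15 hosts by Cdk6 (12.4), Zmiz1 (11.1), Tns3 and Srgap2 (10.0 each), Sgms1 (9.30) and Arid1b (8.62), while Lpp had 4.43 and Elmo1 4.16. Among genes with at least 4 members the densest were short: Cndp2, a dipeptidase (49.1 per 100 kb, 5 members with folds of 2.23 to 4.17), Il17ra, the interleukin-17 receptor A chain (37.4), Glipr2 (29.4), Tmed10, a cargo receptor of the secretory pathway (29.4), Rnf19b (28.3), Psap, the precursor of the saposins (26.8), Slc37a2 (26.1), Rgs10 (26.01), Fam168b (25.96) and Ubap1 (25.9). Of the 5 members in Cndp2 only 1 was in both replicate lists, while Glipr2 had 5 of 5 and Il17ra 4 of 5. Psap had 1 of 4, with a median fold of 2.79 and a highest of 46.9, and Rgs10 had 4 of 10. Tmed10 had 4 of 7, Ubap1 5 of 8, and Rnf19b, Slc37a2 and Fam168b 3 of 5 each. Of these 10 hosts, 9 had a promoter peak, against 73.2% of all hosts.

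Many members lay near another member of their host. Another member of the same host lay within 12500 bp of 6630 members (66.8%). Whether this share exceeds that of evenly or randomly placed peaks at the same density was not tested. The longest run, with no gap over 12500 bp, had 23 members over 77.4 kb of Lyn (chr4:3699416-3776849), with a median fold of 4.61 and a highest of 24.3. It was followed by 16 members over 72.6 kb of Arid1b and 15 over 53.1 kb of Tns3, with highest folds of 36.7 and 37.2.

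Hosts more often had a promoter peak than other genes. A promoter peak stood at 2753 of 3761 hosts (73.2%, 71.8% to 74.6%) and at 5586 of 13799 genes without a member (40.5%, 39.7% to 41.3%), against 47.5% of all. Genes with a promoter peak held 23.9 members per Mb of eligible intron and those without 4.13. The replicate lists gave 21.2 and 21.0 per Mb with, and 3.51 and 3.48 without. The gap was present in every class of intron length, from 26.5 against 6.54 per Mb in genes with 5 to 20 kb of eligible intron to 16.0 against 2.40 in genes with over 200 kb. Counting only members that lie wholly over 2.5 kb from every start, it was 22.6 against 4.05. The peaks themselves differed less: members with a promoter peak at a host had a median fold of 5.29 and 69.8% were in both replicate lists, and the other 2005 members (20.2%) had 4.92 and 68.2%.

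**Figure D3:**
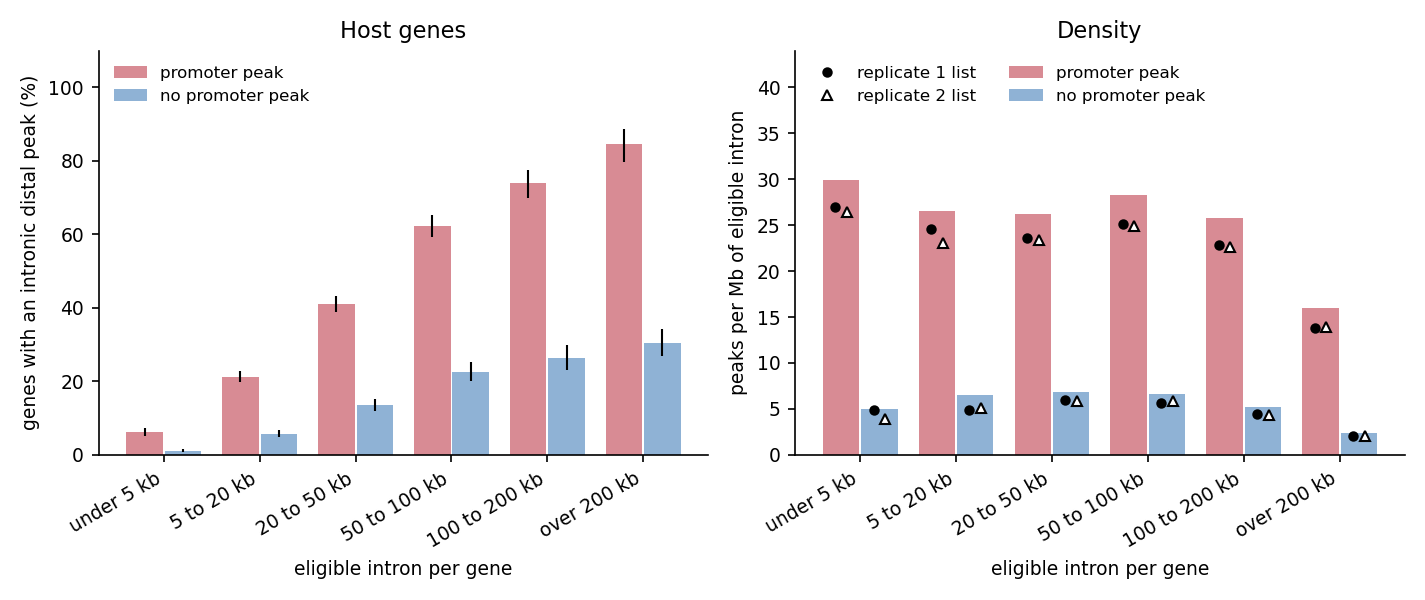
Left, percent of protein-coding genes with an intronic distal peak (y axis, 95% Wilson intervals) by the length of eligible intron per gene (x axis), for genes with and without a promoter peak. Right, peaks per Mb of eligible intron for the same genes, with bars for the list from both replicates and symbols for each replicate. Genes with a promoter peak stand above the others in all 6 length classes on both panels.

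Gene lists were compared by members per Mb of eligible intron, beside 11.6 for all genes and 23.9 for all genes with a promoter peak, and no test was made over lists. Of 18 lists, 11 stood above the value of all genes. Of the myeloid and macrophage transcription factors, 29 of 36 were hosts (80.6%, against 21.4% of all genes), with 149 members and 59.3 per Mb (53.7 and 49.7 in the replicate lists). Runx1 held 17 members, with folds up to 38.5, Etv6 held 15, Arid5b 13 and Zeb2 10. Klf13 held the highest fold of the list, 42.9 (37.6 and 41.7 in the replicates). Ets2, with 7.16 kb of eligible intron, held none.

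In several of the transcription factors known from macrophages, the strong members lay deep in long introns. Fli1, an ETS factor, held 9, the highest being 34.6 and 34.5 (32.5 and 27.8 in replicate 1, 34.3 and 32.5 in replicate 2), both in its first intron of 64.4 kb. Mef2c held 9 with a highest of 25.97 in intron 4 (24.8 and 23.0). Mitf, an MiT/TFE factor, held only 4, but 3 of them had folds of 26.3 to 37.4, all in its first intron. Spi1 held 3, with a highest fold of 12.8 (12.2 and 13.1), beside a promoter peak of 54.9. Irf8, an interferon regulatory factor, held 1 of 4.55. Csf1r, the receptor for the growth factor CSF1, held 2, of 26.1 (23.6 and 24.5) and 3.71. Tlr4, the lipopolysaccharide receptor, held 5, of which 3 were in both lists, with a highest of 11.4. Tlr2 and Cd14 held none, with 0.477 kb and 0 kb of eligible intron.

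Surface receptors of macrophages had 56.7 members per Mb, with 23 of 39 genes as hosts. Mrc1, the mannose receptor, held 8 with folds of 3.61 to 11.2, Cd36 and Mertk, receptors for lipids and for dying cells, 7 each with highest folds of 26.7 and 28.6, and Cd180 none in 32.8 kb. Lysosome and endocytosis genes had 49.9 per Mb and 30 of 40 hosts, among them Rab31 (12 members), Npc1, the lysosomal cholesterol transporter (4, up to 44.2), and Atp6v0d2 (4, up to 33.1), the last without a promoter peak. Atp6v0d1 held 4 members with folds of at most 3.53, none of them in both replicate lists, and Atp6v0a1 held none in 43.1 kb.

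Signalling lists also stood above all genes. Cytokine receptor and JAK-STAT genes had 48.1 per Mb (50.5 and 44.2 in the replicate lists, where lysosome genes had 45.0 and 49.4) and 23 of 36 hosts, with 11 members in Tgfbr2, a TGF-beta receptor chain, and 37.0 as the fold of a peak at Tnfrsf1a that covers its start. Pattern recognition and NF-kB genes had 45.6 per Mb (20 of 43 hosts), with 7 members in Irak2 and 6 in Nfkb1, and Cyld without any. G protein coupled receptor genes had 39.5, led by Rgs10 with 10 members (highest 46.8, and 42.7 and 44.1 in the replicates). Cx3cr1, the fractalkine receptor, held 9 with no fold above 5.29. Lipid metabolism and nuclear receptor genes had 32.4, with 11 members in Rxra and 7 each in Pparg and Abca1. Src, Syk and phosphoinositide genes had 31.7.

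In 3 lists nearly all genes had a promoter peak, yet the share of hosts was not above the 21.4% of all genes. Of the interferon stimulated genes, 35 of 36 had a promoter peak, but only 4 were hosts (Ifit2, Trim30a, Sp100 and Samhd1), with 6 members and 10.5 per Mb, or 5.44 without Ifit2. This list stood at 8.75 per Mb in replicate 1 and 14.01 in replicate 2, below and above the values of all genes in those lists (10.2 and 10.1). Of the DNA replication and mitosis genes, 31 of 32 had a promoter peak and 3 were hosts, with 8.63 per Mb (6.17 and 4.93 in the replicate lists, and 3.99 without Rfc1). Both lists have short introns, with medians of 12.2 and 9.02 kb. Their shares of hosts had wide intervals, 4.41% to 25.3% for the interferon list and 3.24% to 24.2% for the replication list. Genes with a promoter peak and 5 to 20 kb of eligible intron were hosts in 21.2% of cases, but this class holds only the medians of the lists. Of the hosts, Ifit2 (19.6 kb) lies in it. Trim30a (49.6 kb), Sp100 (42.9 kb), Samhd1 (26.3 kb), Rfc1 (59.3 kb), Anln (38.7 kb) and Bub1b (37.0 kb) have longer introns. The part of intron length in these shares was not tested. Ribosomal and translation genes had a promoter peak in 19 of 19 and a median of 1.80 kb of eligible intron. Of these 19 genes 4 were hosts (21.1%, 8.51% to 43.3%). Genes with a promoter peak and under 5 kb of eligible intron were hosts in 6.13% of cases, but none of the 4 hosts belongs to that class. Rps14, Rpl11, Eif2s1 and Eif4g1 have 20.9, 21.3, 19.6 and 8.83 kb of eligible intron. Genes with a promoter peak were hosts in 21.2% of cases at 5 to 20 kb and in 40.9% at 20 to 50 kb. The ribosomal list had 86.1 members per Mb on only 0.104 Mb of eligible intron. Of its 9 members 5 lay in Rps14, and without that gene the density was 47.9 per Mb.

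Lists of other cell types, B cell genes apart, had fewer members per Mb than all genes, but not in each case a lower share of hosts. Neuronal adhesion, channel and synapse genes had 0.812 per Mb over 43.1 Mb of eligible intron, with 9 of 40 as hosts (22.5%, against 21.4% of all genes). These genes are long, with a median of 1061 kb of eligible intron against 16.4 kb in all genes, and 1 of the 40 had a promoter peak. Genes with over 200 kb and no promoter peak were hosts in 30.5% of cases, inside the interval of the neuronal list (12.3% to 37.5%). Muscle genes had 1.63 per Mb (0.544 and 1.09 in the replicate lists, and 0.925 without Myom1) and 4 of 32 hosts. Fibroblast and epithelial genes had 1.29, or 0.673 without Cdh1, and 2 of 29 hosts. T and NK cell genes had 7.22 and 7 of 31 hosts (22.6%), and mast, stem and erythroid genes 9.67 and 11 of 28 hosts (39.3%). Only 3 of the 31 and 6 of the 28 had a promoter peak. All genes without a promoter peak had 4.13 per Mb and were hosts in 10.9% of cases, so these lists stood above that value. B cell genes had 30.7 per Mb and 12 of 27 hosts, with 25 of 56 members in Lyn, which is also expressed in macrophages and stands in the Src list too, and 18.2 without it. Of the remaining B cell list, Bach2, a transcriptional repressor, held 13 members (11 in both lists) with a highest fold of 25.7 (24.4 and 24.5) and no promoter peak. Cxcr5, a chemokine receptor, held 3 up to 20.8 and also had no promoter peak. Ms4a1, which encodes CD20, held 2 up to 18.2 and did have a promoter peak, of 5.94. Other hosts without a promoter peak were Dlgap1 (6 members, highest 24.9, and 21.9 and 24.5 in the replicates), Magi2 (10, up to 16.1) and Mybpc1 (1, of 20.9). The part of other cell types or of neighbouring genes in these peaks was not tested.

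**Figure D4:**
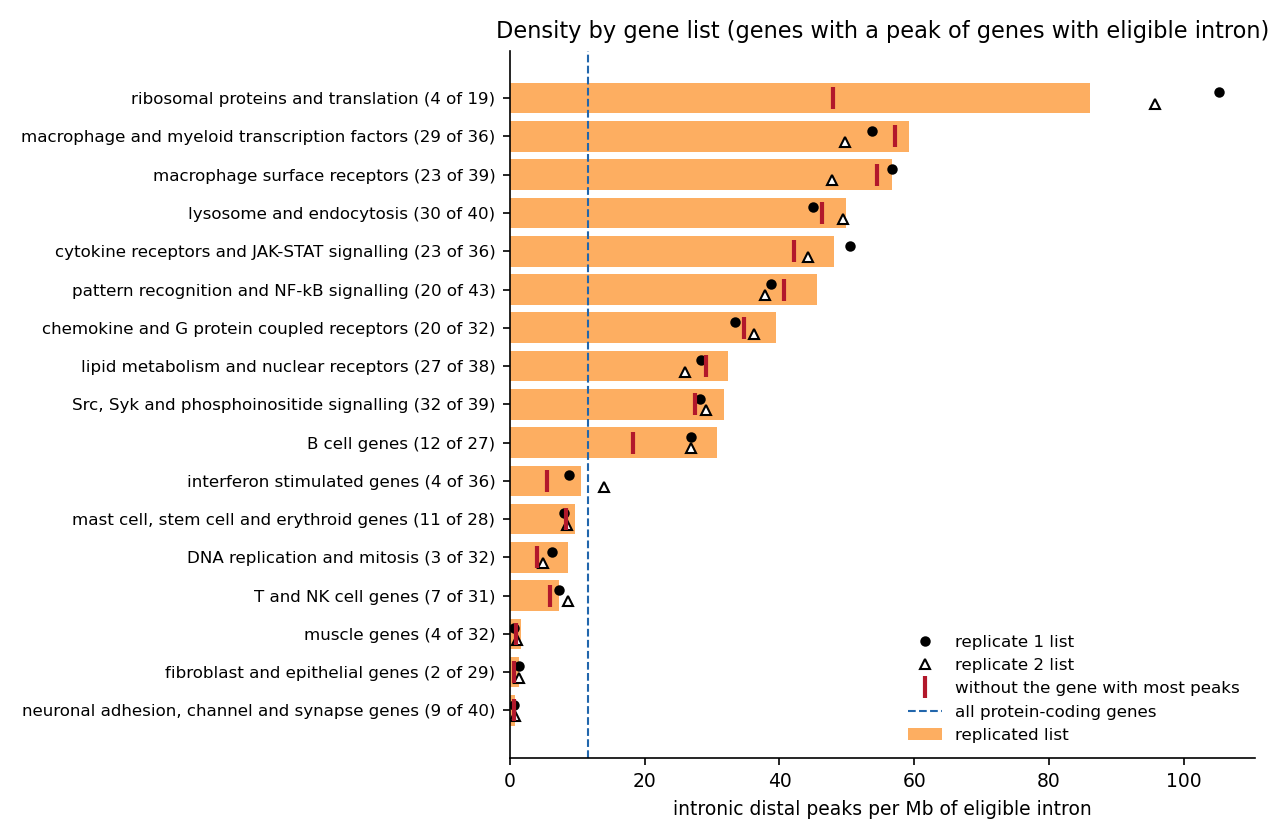
Intronic distal peaks per Mb of eligible intron (x axis) in 17 gene lists (y axis, with hosts of genes that have eligible intron), for the list from both replicates (bars), each replicate (symbols) and without the gene that holds most members (vertical marks). The dashed line is the value of all protein-coding genes, 11.6 per Mb. Macrophage, lysosome and signalling lists lie to its right, and so do the lipid, B cell and ribosomal lists. The ribosomal list has the longest bar, 86.1 per Mb (47.9 without Rps14), and the B cell list has 30.7 (18.2 without Lyn). Muscle, fibroblast and neuronal lists lie near 0, and the interferon list crosses the line between replicates.

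The sequence of the members differed from other intron in composition and in short words. In windows of 500 bp around the midpoints, the median GC content was 46.2%, against 42% in 1591835 windows of the same length that tile the same eligible intron outside peaks, and 51.4% near starts. The median observed over expected ratio of CpG dinucleotides was 0.188, against 0.161 in the tiles and 0.493 near starts. Repeat-masked bases made up a median of 13.6%, against 21.4% of the tiles. Of members, 0.574% had a CpG ratio above 0.6, against 34.3% of promoter-near peaks and 2.83% of intergenic distal peaks.

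Of 14 words read on both strands, 11 were in a larger share of members than of tiles. The AP-1 word TGACTCA was in 16.2% of members (15.5% to 16.9%), in 7.99% of tiles and in 7.95% of promoter-near peaks. The PU.1 word GAGGAAGT was in 9.58% (9.02% to 10.2%), 2.83% of tiles and 5.16% of promoter-near peaks, and its longer form, with an A before it and a G after it, in 1.63% and 0.319% of tiles. Intergenic distal peaks held these 2 words at shares whose intervals overlap those of the intronic peaks (17.3% for TGACTCA and 10.6% for GAGGAAGT). The word of MAF factors, TGC followed by TGAGTCA, which contains the AP-1 word on the opposite strand, was in 0.907% of members and 0.270% of tiles, and the MiT/TFE word GTCACGTG in 1.39% and 0.537%. The RUNX word TGTGGTTT was in 5.77% and 4.15%, and the IRF word in 9.25% and 7.77%. The GC box CCGCCC was in 7.86% of members, 4.25% of tiles and 33.9% of promoter-near peaks.

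Of the remaining words, 3 were in a smaller share of members than of tiles and 3 in a larger one. The open C/EBP word TTGCNNCAA was in 3.98% of members and 4.34% of tiles, the GATA word GATAAG in 14.01% and 17.0% and the TEAD word CATTCCA in 7.00% and 7.997%. The exact C/EBP word TTGCGCAA was in 0.0907% of members (9 of 9924) and 0.0355% of tiles. The exact NF-kB word (GGGAA followed by TTTCC) was in 0.111% of members (11 of 9924) and 0.0875% of tiles. The open NF-kB word (GGG and CC with any 5 bases between) was in 42.8% and 32.9%. A further comparison, chosen after the data were seen, used 318521 tiles filtered by composition (GC content of 42% to 50% and at most 20% repeat-masked). All members were kept without this filter, so members and tiles were not matched in composition. The IRF word was in 5.76% of the filtered tiles, against 7.77% of all tiles. Against the filtered tiles the ratio was 3.78 for the longer PU.1 word, 2.96 for the MAF word, 2.85 for GAGGAAGT, 1.73 for the exact C/EBP word and 1.66 for TGACTCA. The same ratio was 1.61 for the IRF word, 1.54 for the MiT/TFE word, 1.52 for the GC box, 1.41 for the RUNX word and 1.02 for the open NF-kB word. It was below 1 for the other 4 words. The ratio of the exact C/EBP word rests on 9 members. Their share has an interval of 0.0477% to 0.172%, which includes the 0.0524% of the filtered tiles.

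The AP-1 and PU.1 words were more common in the better supported members. GAGGAAGT was in 10.6% (9.87% to 11.3%) of members in both replicate lists and in 7.33% (6.45% to 8.31%) of the others, and TGACTCA in 17.0% and 14.3%. In members 1 to 2 kb wide the shares were 13.96% and 19.6%, and in members under 500 bp wide 7.31% and 13.3%. The 500 bp window reaches past the narrow members. In 200 bp windows the shares were 6.95% and 9.11% in members 1 to 2 kb wide and 1.17% and 4.17% in those under 500 bp. The tiles had 1.11% and 3.24%. First and later introns were close in 500 bp windows, with 10.0% and 9.32% for GAGGAAGT and 15.2% and 16.7% for TGACTCA. At least 1 of GAGGAAGT, TGACTCA and TTGCNNCAA was in 27.6% of members, whose median fold was 5.75, against 5.01 for those with none.

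**Figure D5:**
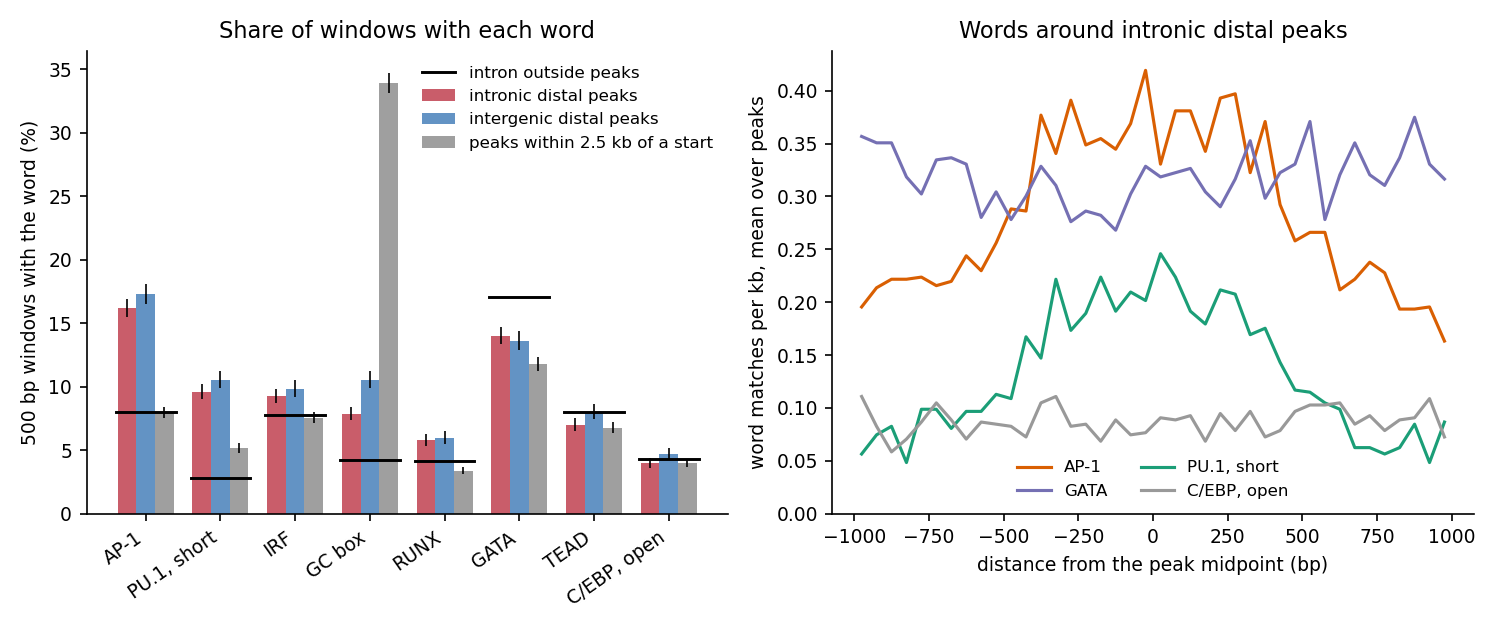
Left, percent of 500 bp windows that hold each word (y axis, 95% Wilson intervals) in intronic distal, intergenic distal and promoter-near peaks, with black lines for tiles of the same introns outside peaks. Right, mean matches per kb over the 9924 intronic distal peaks (y axis) by distance from the midpoint (x axis, bins of 50 bp). AP-1 and PU.1 matches are more frequent around the midpoint than 1000 bp away, while the GATA and C/EBP lines have no such rise.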

How the data were processed

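The deposited peak lists on mm10 (GRCm38) were used as they stand. Per the deposited text files, 1 list was made from each replicate and a replicated and a pooled list from both. Each peak's fold, as the authors deposited it, is a linear ratio to the control or background, and its q-value was deposited on a −log10 scale. For the aligner and the peak caller, neither name nor settings is given in the sources used here. Peaks were placed by midpoint on GENCODE M21, with starts of transcripts of type protein-coding in protein-coding genes (54327 starts), an overlap of 1 bp for support, and 95% Wilson intervals, in Python 3.11.15 with numpy 2.4.6, pandas 2.3.3 and scipy 1.17.1. Eligible bases, overlaps and words were tested on simulated data. Intron numbers came from 1 coding transcript per gene (best APPRIS tag, then basic tag, coding length and span). Promoter peaks overlap the 1 kb on either side of a coding start. Words were read on both strands in 500 bp windows. Named genes are the 20 highest folds, the 15 hosts with most members, the 10 densest hosts with at least 4, the 5 widest, the 5 highest folds without support, the 3 longest runs, for each list the highest fold, the most members and the first gene without a member, and 10 set genes. Further hosts of the lists with many members were named after their values were seen. The members and the 18 lists (650 of 653 names matched, 11 genes in more than 1 list, and 1 list not reported here) were chosen with earlier results of these data known. Alternatives were other distances, exon and start sets, lists, overlaps, thresholds, transcripts and windows.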

Additional observations from a re-analysis of the deposited data

How the results depend on the processing

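No paired analysis was possible because the series has 1 group. The members per Mb of first introns stayed above those of later introns with other transcripts, distances of 5 and 10 kb, the pooled list and either replicate left out. The median fold of members stayed below those of intergenic and promoter-near peaks in the pooled list, with either replicate left out, at a −log10 q of at least 5 and for peaks wholly over 2.5 kb away. The other settings were not run for these values, and the cause of each shift below was not tested. The 9924 members became 5130 among the 20000 peaks of highest fold, where 25.65% of peaks were intronic distal and 99.6% of these in both lists. The share of peaks, 30.2%, was 35.1% with a distance of 1 kb, 26.2% with 5 kb, 30.6% with exons of coding genes only, 26.1% with starts of every biotype, and 29.5% at a −log10 q of at least 5. With 2 settings chosen after seeing the data, starts of every transcript of coding genes and whole peaks over 2.5 kb away, it was 27.6% and 28.8%. Support in both lists, 69.5%, was 59.4% with 50% of the member overlapped, 58.8% with 50% of both peaks and 74.3% at a −log10 q of at least 5. The share in first introns, 35.3%, and the density ratio, 1.80, were 45.1% and 1.69 with the first intron of any transcript, 31.8% and 1.67 with that of every transcript, 35.6% and 1.75 with the longest transcript, 32.3% and 1.72 beyond 5 kb, 28.4% and 1.63 beyond 10 kb and 35.5% and 1.81 in the pooled list. The share of genes with a member was 20.1% with members of 1 host. At a −log10 q of at least 5 the median fold was 5.57 and the median width 1215 bp, 0.909 and 1.04 times those of intergenic and 0.732 and 1.35 times those of promoter-near peaks, against 0.891, 1.04, 0.700 and 1.28 in the full list. In the pooled list the fold ratio to intergenic peaks was 0.889 and the width ratio to promoter-near peaks 1.29. For peaks wholly over 2.5 kb away the median fold was 5.10, the ratios to intergenic peaks 0.876 for fold and 1.01 for width, and the width ratio to promoter-near peaks 1.25.

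With either replicate left out, the share of peaks was 29.5% to 29.6%, the share in first introns 35.7% in both, the density ratio 1.83 in both, the median fold 6.02 to 6.03, the median width 1007.5 to 1070.5 bp, the share of genes with a member 19.3% in both and that of hosts with a promoter peak 69.9% to 70.6%. The fold ratio was 0.897 to 0.900 to intergenic and 0.750 to 0.778 to promoter-near peaks, and the width ratio 1.25 to 1.26 to promoter-near peaks. The width ratio to intergenic peaks turned round, at 0.992 to 0.998. Of the lists, only the interferon stimulated genes crossed the value of all genes, at 0.859 times without replicate 2, 1.39 times without replicate 1 and 1.09 times with members in both lists only, against 0.909. Of the words, only the exact NF-kB word crossed the share of tiles, at 0.905 times in 200 bp windows and 0.849 times against tiles filtered by composition, against 1.27. Of the other values for lists and words, 62 moved by less than the spread and 66 by more without a change of side.

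The depth behind the lists is unknown, so the number of low peaks cannot be set against sequencing depth, and most members without support stand at the low end of the fold ranking. Host counts depend on long predicted gene models, and host genes need not be targets. Replicates share a donor entry.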

Other observations

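The X chromosome held few intronic distal peaks: 215, or 5.54 per Mb of eligible intron, against 11.9 per Mb on the autosomes, where chromosomes ranged from 9.68 to 17.3. The replicate lists gave 4.74 and 4.61 on the X and 10.5 and 10.4 on the autosomes. Promoter peaks were also less common, at 32.3% of 702 X-linked genes with eligible intron and 48.4% of 16755 autosomal genes. Within genes that have a promoter peak, the X held 15.8 members per Mb and the autosomes 24.2, and within genes without one 1.70 and 4.29. The median fold of X-linked members was 4.82, against 5.19 on the autosomes, and 65.6% and 69.6% were in both replicate lists. The sex of the animals was not collected, and its part in these values was not tested.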
